A study of Mus musculus with 2 samples.

Results

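The interferon-stimulated genes and interferon regulatory factors (IRF) form a list of 42 mouse genes, which were read from 2 Affymetrix arrays of ventricular cardiomyocytes of newborn mice (mNVCM). The list holds the receptor chains for interferon, 8 IRF genes, the sensors of foreign RNA and the antiviral genes that interferon switches on. The GTPases of the GBP and IRG families were kept out of it by rule. A gene was taken as measured when at least 1 probe set carried its symbol, current or older, and no other gene, and this held for 40 of the 42 genes, with 69 probe sets, out of 18193 genes on the array. *Ifi44* had no such probe set, and the probe set that names *Isg15* names another gene as well, so neither was analysed here.

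One array held cells exposed to doxorubicin alone (Dox) and the other held cells pre-incubated with hAFS-CMHypo before doxorubicin (hAFS-CMHypo + Dox). Doxorubicin is an anthracycline that traps topoisomerase on DNA. hAFS-CMHypo is medium conditioned under hypoxia by human amniotic fluid-derived stem cells, and it carries factors that these cells secrete. Both cultures came from C57BL6/J mice at 2 days after birth, were grown for 48 to 72 h, were kept for 1 h in medium with 0.5% serum and received 1 μM doxorubicin. The pre-incubation lasted 3 h. The labels give 6 h of doxorubicin for hAFS-CMHypo + Dox and 21 h for Dox, whereas the methods of the study give the same time for the arrays of both conditions, so the pre-incubation and the labelled hours cannot be told apart. There was 1 array per condition, which limits the precision. The differences below therefore carry no error between cultures and no p-value, and each one describes these 2 arrays only. The authors made the values by RMA, on a log2 scale, and a log2 ratio here is the value for hAFS-CMHypo + Dox minus that for Dox, read at the brightest probe set of the gene by its mean. Levels of different genes are read by different probes and were not set against each other, and a level summed over markers serves only to set one array beside the other.

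Interferons are cytokines that warn cells of infection. Type I interferons bind the receptor of *Ifnar1* and *Ifnar2* and lead, through the kinases JAK1 and TYK2, to the complex ISGF3, which holds STAT2 and IRF9 and binds an interferon-stimulated response element (ISRE). Interferon gamma binds the receptor of *Ifngr1* and *Ifngr2* and leads to binding at a gamma-activated site (GAS). Some of the same genes are also open to IRF3 and to NF-κB, which the cell activates when it senses foreign nucleic acid or inflammatory cytokines. In the heart, interferon signalling is known for protecting muscle cells in viral myocarditis.

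The letters that these factors read are shown first. *Irf1*, the one with the largest log2 ratio among the 40 measured members, and classical antiviral genes such as *Ifit1* hold different ones. *Ifit2*, with the lowest log2 ratio among them (-0.47), holds the same kinds as *Irf1*, so the contrast does not link letters to ratios. The sequences are RefSeq promoter windows of GRCm38.p6, which run from 250 bases before to 50 bases after each start and were matched for 35 of the 42 genes (*Mx1*, *Mx2*, *Oas2*, *Parp9*, *Parp14*, *Rtp4* and *Usp18* had no entry). The motifs searched on both strands were GAAANNGAAA for the ISRE, TTCNNNGAA for the GAS, and the κB consensus for NF-κB. Capitals mark every match to any of them in the 250 bases before the start of *Irf1*, *Irf2*, *Bst2* and *Ifit1*, all given 5′ to 3′ in the direction of the gene.
*Irf1* chr11:53769764-53770013 (+ strand): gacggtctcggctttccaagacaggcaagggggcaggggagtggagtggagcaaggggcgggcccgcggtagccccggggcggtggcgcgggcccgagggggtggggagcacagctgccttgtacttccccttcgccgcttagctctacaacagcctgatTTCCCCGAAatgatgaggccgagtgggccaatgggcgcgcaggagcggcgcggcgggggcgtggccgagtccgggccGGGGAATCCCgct
*Irf2* chr8:46739495-46739744 (+ strand): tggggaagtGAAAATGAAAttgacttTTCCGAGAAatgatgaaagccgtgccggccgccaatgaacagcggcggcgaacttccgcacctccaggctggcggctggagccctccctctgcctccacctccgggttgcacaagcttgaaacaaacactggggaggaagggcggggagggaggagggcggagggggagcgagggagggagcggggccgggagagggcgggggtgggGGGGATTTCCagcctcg
*Bst2* chr8:71537473-71537722 (- strand): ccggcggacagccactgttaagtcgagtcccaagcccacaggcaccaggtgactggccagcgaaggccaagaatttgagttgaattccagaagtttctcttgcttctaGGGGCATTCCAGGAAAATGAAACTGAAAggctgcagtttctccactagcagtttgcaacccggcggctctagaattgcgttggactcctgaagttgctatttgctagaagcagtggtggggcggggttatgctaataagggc
*Ifit1* chr19:34640639-34640888 (+ strand): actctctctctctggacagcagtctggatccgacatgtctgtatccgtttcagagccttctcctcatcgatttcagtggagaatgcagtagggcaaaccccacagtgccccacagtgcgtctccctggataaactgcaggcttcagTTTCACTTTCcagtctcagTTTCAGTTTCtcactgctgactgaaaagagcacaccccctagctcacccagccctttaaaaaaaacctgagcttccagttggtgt

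The *Irf1* window held a GAS at -90 to -82 and a κB match at -13 to -4, counted from the start as 0, and no ISRE. *Irf2* held all 3 kinds, with the ISRE at -241 to -232, the GAS at -224 to -216 and the κB match at -17 to -8. In *Bst2* the κB match, the GAS and 2 ISRE matches overlapped in 1 stretch from -142 to -115. *Ifit1* held 2 ISRE matches on the other strand, at -104 to -95 and at -85 to -76, and neither of the other motifs. Of the remaining measured members with an ISRE match, a stretch of at most 30 bases is given below, with the ISRE in capitals. The search fixed most of the capital letters, so their likeness is not a result.
*Ifit3* chr19:34583363-34583392 (+ strand): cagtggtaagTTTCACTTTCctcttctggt
*Oas1a* chr5:120907523-120907552 (- strand): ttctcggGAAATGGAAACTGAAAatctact
*Oas3* chr5:120777715-120777744 (- strand): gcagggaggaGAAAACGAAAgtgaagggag
*Rsad2* chr12:26456553-26456582 (- strand): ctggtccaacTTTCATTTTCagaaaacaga
*Ifitm2* chr7:140955988-140956017 (- strand): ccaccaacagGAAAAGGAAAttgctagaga
*Ifitm3* chr7:141010714-141010743 (- strand): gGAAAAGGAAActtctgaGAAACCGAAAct
*Eif2ak2* chr17:78882535-78882564 (- strand): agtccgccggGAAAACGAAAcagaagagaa
*Ifih1* chr2:62646206-62646233 (- strand): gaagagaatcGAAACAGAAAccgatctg
*Ddx58* chr4:40239804-40239833 (- strand): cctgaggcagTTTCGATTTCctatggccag

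Matches for other motifs are shown for *Irf8*, with 2 GAS matches in capitals, and for *Ifngr2*, with a κB match in capitals.
*Irf8* chr8:120736186-120736215 (+ strand): tTTCTCGGAAagagagcgcTTCAGAGAAgg
*Ifngr2* chr16:91546974-91547003 (+ strand): ggaacaccggGGAAAGTCCCcacgggccgg

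In all, an ISRE match was present for 13 of the 35 genes (37.1%), against 3.99% of the 27025 genes with a promoter window in the table. A GAS match was present for 14 of the 35 (40.0%), against 9.55% of all genes, and a κB match for 9 (25.7%), against 9.55%. A match is a run of letters and not a shown binding site, and the absence of a match says only that these letters were not in the window. *Ifit2* was matched by a GAS at -241 to -233 and an overlapping κB match at -247 to -238 in 1 of its windows, and *Ifit3* by 2 ISRE matches, of which the first is printed above. *Isg15*, which has no value here, held 3 overlapping ISRE matches between -78 and -57.

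**Figure D1:**
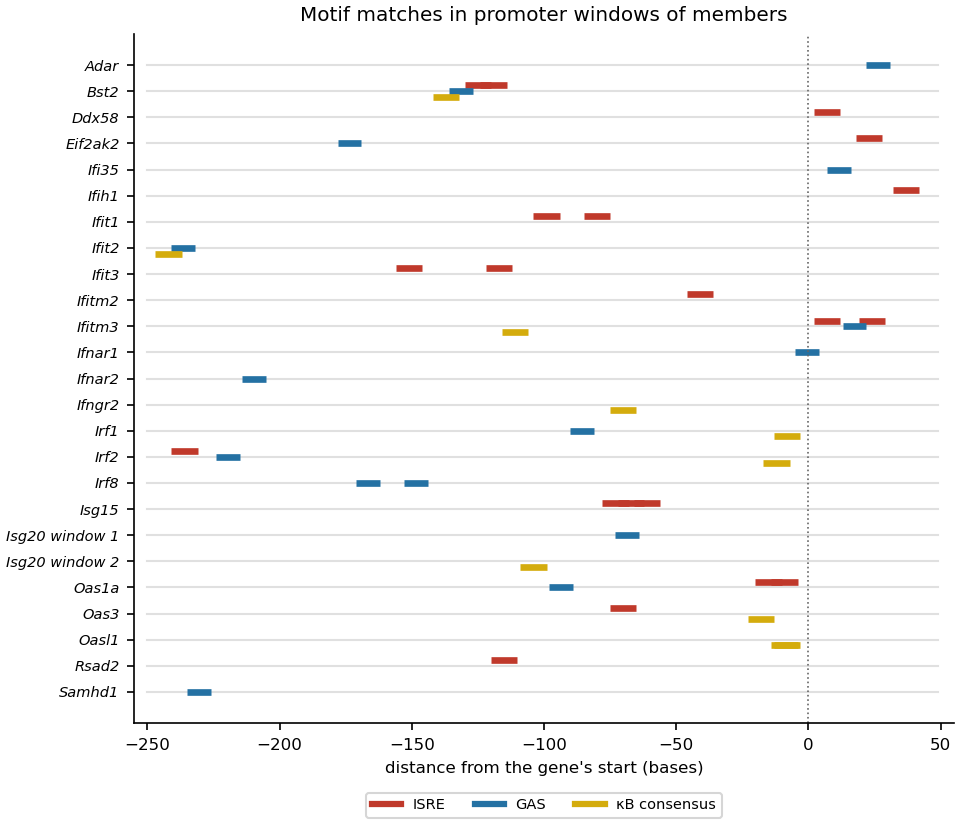
Position of ISRE (red), GAS (blue) and κB consensus (yellow) matches in promoter windows of the members that held at least 1 match, as distance in bases from the start of the gene (dotted line, 0). The windows of *Irf1* and *Ifit2* hold a GAS and a κB match without an ISRE, whereas *Ifit1* and *Ifit3* hold 2 ISRE matches each.

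Most members were slightly higher on the hAFS-CMHypo + Dox array, and 1 of them, *Irf1*, was higher by more than 2-fold. The median log2 ratio of the 40 genes was 0.22, against 0.01 over all 18193 genes. Of the members, 30 had a log2 ratio above 0, against 51.2% of all genes, and 10 had one below 0, against 48.7%. At 2-fold, the threshold that the methods of the study state, 1 member was higher, against 0.506% of all genes, and none was lower, against 0.214%. At 1.5-fold, 4 members were higher (*Irf1*, *Oasl2*, *Parp14* and *Rtp4*), against 2.32% of all genes, and none was lower, against 1.52%.

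A finer threshold was taken from the arrays themselves. Within a gene, the log2 ratios of its probe sets varied with an SD of 0.20, a 1.15-fold difference, over 5166 genes with several probe sets at or above the median signal. This SD holds differences between probe sets and no variation between cultures. By more than this SD, 21 members were higher, against 18.5% of all genes, and 7 were lower, against 16.3%. The 7 were *Ifit2*, *Samhd1*, *Isg20*, *Irf4*, *Oasl1*, *Ifngr2* and *Mx2*. In bulk RNA, fewer cells of a type and less RNA per cell cannot be told apart, which bears on every value here.

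**Figure D2:**
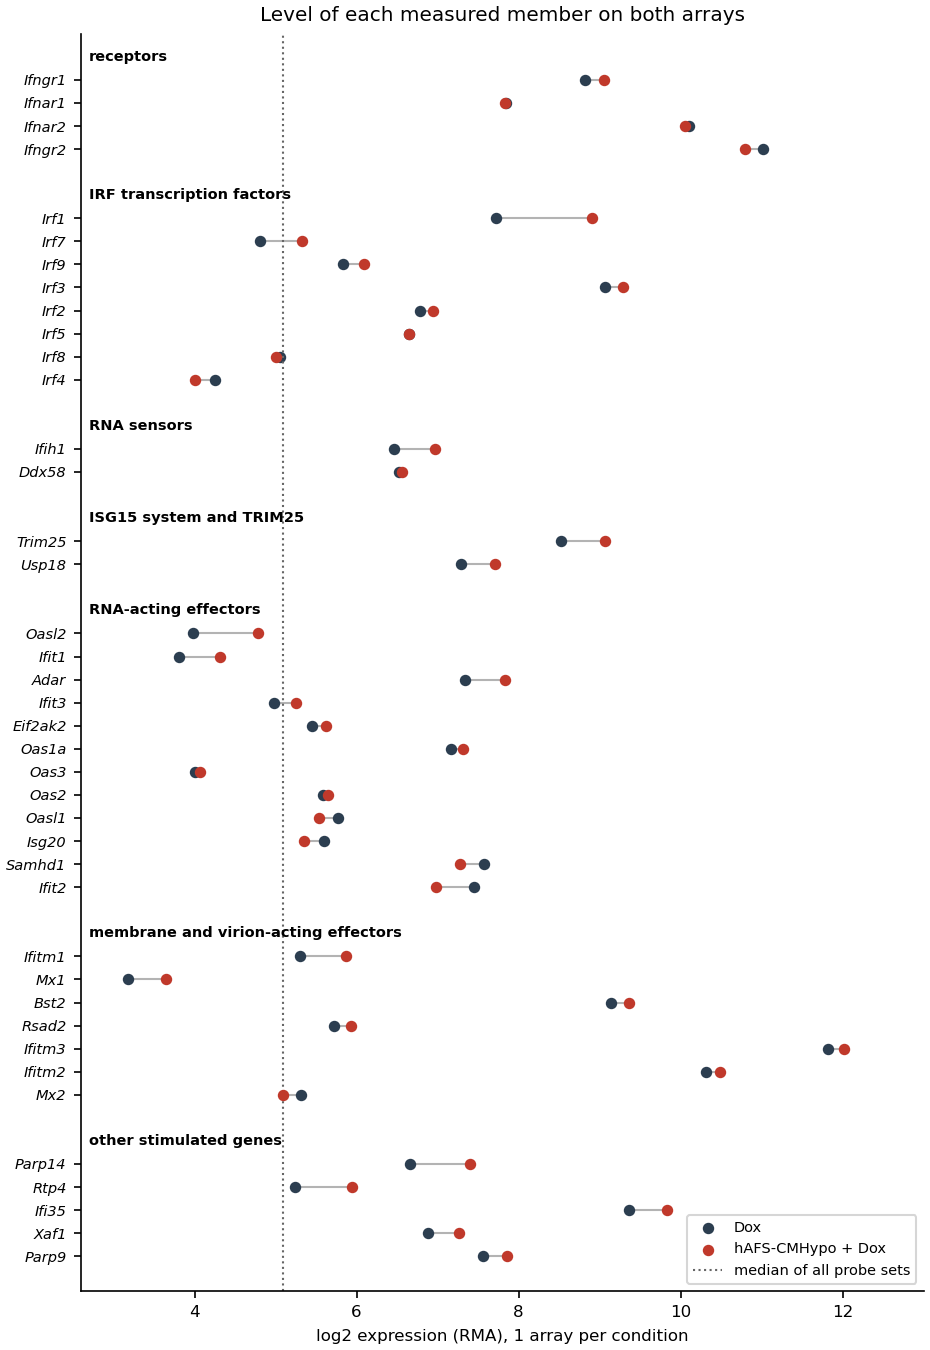
Log2 expression (RMA) of the 40 measured members grouped by role, in dark for Dox and in red for hAFS-CMHypo + Dox, with 1 array per condition. A dotted line marks 5.10, the median over all probe sets. The widest gap is that of *Irf1*, from 7.72 to 8.90, and *Ifit2* has its red point on the left.

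The IRF transcription factors differed widely among themselves. *Irf1*, an activator that interferon gamma and NF-κB are both known to induce, was at 8.90 with hAFS-CMHypo + Dox and at 7.72 with Dox alone, in log2 values. The log2 ratio of its only probe set was thus 1.19, or 2.27-fold, and it ranked 59 among the log2 ratios of all genes. *Irf2*, which competes with *Irf1* for the same sites, had 6.94 against 6.78, a log2 ratio of 0.15 that is within the SD between probe sets. So the activator and its competitor, which carry GAS and κB letters in common, had log2 ratios of 1.19 and 0.15.

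The IRF genes that serve type I interferon had smaller log2 ratios than *Irf1*. *Irf7*, which amplifies the synthesis of interferon alpha, had 5.33 against 4.81, a log2 ratio of 0.52. *Irf9*, the DNA-binding subunit of ISGF3, had 6.10 against 5.83, or 0.27. *Irf3*, which is present before infection and is switched on by phosphorylation, had 9.29 against 9.06, or 0.23. All 3 passed the SD between probe sets, but the 4 probe sets of *Irf3* ran from -0.36 to 0.43 and did not share a sign.

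The IRF genes best known from leukocytes showed no common direction. *Irf5*, which acts behind Toll-like receptors, had 6.65 on both arrays, a log2 ratio of 0.00 (0.26 at the second probe set). *Irf8*, a factor of myeloid cells, had 5.00 against 5.05, or -0.05 (0.31 at its other probe set). *Irf4*, a factor of lymphocytes and of some macrophages, had 4.01 against 4.25, or -0.24 (0.11 at its other probe set). Both probe sets of *Irf4* and both of *Irf8* were below the median of all probe sets, 5.10, on both arrays, and whether they exceed background is not known, since the deposited values hold no detection call. Over the 8 IRF genes the median log2 ratio was 0.19, and 4 passed the SD upwards, against 18.5% of all genes, and 1 downwards, against 16.3%. With probe sets whose name ends in _a_at, _s_at, _x_at or a like suffix left out, this median was -0.023. That choice removes *Irf1*, *Irf2*, *Irf7* and *Irf9*.

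Of the interferon receptor genes, both type I chains were within the SD between probe sets at their brightest probe sets, and both interferon gamma chains were just past it, in opposite directions. *Ifnar1* had log2 values of 7.83 with the pre-incubation and 7.85 without it, a log2 ratio of -0.02 (-0.24 at the other probe set). *Ifnar2*, the chain that also exists in a short and a soluble form, had 10.05 against 10.10, or -0.05, whereas its other probe sets had 0.49 and 0.66. *Ifngr1*, the ligand-binding chain for interferon gamma, had 9.05 against 8.81, or 0.24. *Ifngr2*, the signalling chain that completes this receptor, had 10.79 against 11.01, or -0.22, and -0.87 (6.24 against 7.12) at its other probe set. The chains of the interferon gamma receptor thus lay on opposite sides of 0, and both probe sets of *Ifngr2* were lower. Over the 4 receptor genes the median was -0.03, and 1 passed the SD upwards, against 18.5% of all genes, and 1 downwards, against 16.3%.

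Both RNA sensors of the list were on the positive side. *Ifih1*, which codes for MDA5, a helicase that senses long double-stranded RNA, had 6.96 against 6.46, a log2 ratio of 0.50. *Ddx58* (also *Rigi*), which codes for RIG-I and senses short RNA ends, had 6.57 against 6.52, or 0.04, at its brightest probe set, and 0.10 and 0.54 at the others. *Trim25*, a ubiquitin ligase that acts on RIG-I, had 9.06 against 8.53, a log2 ratio of 0.53, with all 3 probe sets at 0.24 or more. *Usp18*, which removes ISG15 from proteins and damps signalling at the type I receptor, had 7.71 against 7.29, or 0.43. *Trim25* and *Usp18* therefore passed the SD between probe sets, and *Ddx58* did not at its main probe set.

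The effectors that act on RNA or nucleotides went in both directions. Of these 12 genes, 4 passed the SD upwards, against 18.5% of all genes, and 4 downwards, against 16.3%, and their median log2 ratio was 0.10. *Oasl2*, a relative of the oligoadenylate synthetases that make the activator of RNase L, had 4.78 against 3.99, a log2 ratio of 0.80, or 1.74-fold, with both values below the median of all probe sets. *Oasl1*, known to block the translation of *Irf7*, had 5.54 against 5.77, or -0.23. These OAS-like genes had opposite signs. *Oas1a*, *Oas2* and *Oas3* stayed within the SD, with log2 ratios of 0.15 (7.32 against 7.17), 0.06 (5.65 against 5.59) and 0.06 (4.07 against 4.01).

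The IFIT genes, whose proteins bind foreign RNA and are classical targets of ISGF3 and IRF3, were split as well. *Ifit1* had 4.31 against 3.81, a log2 ratio of 0.50, and *Ifit3* had 5.26 against 4.98, or 0.28. *Ifit2* had 6.98 against 7.45, a log2 ratio of -0.47, or 1.39-fold lower, the lowest of all 40 members at their main probe sets. Each has 1 probe set, and the IFIT family includes close copies that a probe set could also detect. *Ifit1bl1*, such a copy outside the list, had 5.28 against 5.82, or -0.55.

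Among the other RNA-acting genes, *Adar*, which edits adenosine in double-stranded RNA, had 7.83 against 7.34, a log2 ratio of 0.49, with all 3 probe sets above 0. *Eif2ak2*, which codes for the kinase PKR and halts translation, had 5.62 against 5.45, or 0.17, and its other probe sets were at -0.10 and -0.06. *Isg20*, an exonuclease, had 5.35 against 5.60, or -0.25. *Samhd1*, which hydrolyses the building blocks of DNA, had 7.28 against 7.57, or -0.29, with 4 of its 5 probe sets below 0. *Adar* and *Samhd1* were thus the members of this group in which several probe sets were beyond the SD on the same side.

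The effectors that act at membranes or on virions were on the positive side except *Mx2*. Of these 7 genes, 4 passed the SD upwards, against 18.5% of all genes, and 1 downwards, against 16.3%, with a median log2 ratio of 0.21. *Ifitm1* had 5.87 against 5.30, or 0.57, *Ifitm2* had 10.48 against 10.31, or 0.17, and *Ifitm3* had 12.02 against 11.82, or 0.19. IFITM proteins block the fusion of viruses with cell membranes, and the genes are alike in sequence, so their probe sets may share signal. *Bst2*, which codes for tetherin and holds budding virions at the cell surface, had 9.36 against 9.14, or 0.22. *Rsad2*, which codes for viperin, had 5.93 against 5.72, or 0.21, but its 3 probe sets ran from -0.36 to 0.42.

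*Mx1* and *Mx2* code for dynamin-like GTPases and are defective in many laboratory mice. *Mx1* had 3.64 against 3.18, a log2 ratio of 0.46, but the value for Dox was under 3.80, the 25th percentile, and may be background. *Mx2* had 5.09 against 5.31, or -0.21. The Mx pair gave no common direction.

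The remaining stimulated genes were all higher, and all 5 passed the SD, against 18.5% of all genes, with a median log2 ratio of 0.47. *Parp14*, an ADP-ribosyltransferase with macro domains, had 7.40 against 6.67, a log2 ratio of 0.73, or 1.66-fold (0.13 at its other probe set). *Parp9*, its partner gene in the interferon response, had 7.85 against 7.56, or 0.29. *Rtp4*, a chaperone that restrains the interferon response, had 5.94 against 5.24, or 0.70, equal to 1.63-fold (0.06 at its other probe set, where the values, 3.24 and 3.19, were below the 25th percentile). *Ifi35*, a regulator of RIG-I signalling, had 9.83 against 9.36, or 0.47, and its 3 probe sets lay between 0.43 and 0.47. *Xaf1*, which antagonizes the apoptosis inhibitor XIAP, had 7.27 against 6.88, or 0.39 (0.06 at its other probe set). *Ifi35* was the member with several probe sets in which all of them gave nearly the same ratio.

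**Figure D3:**
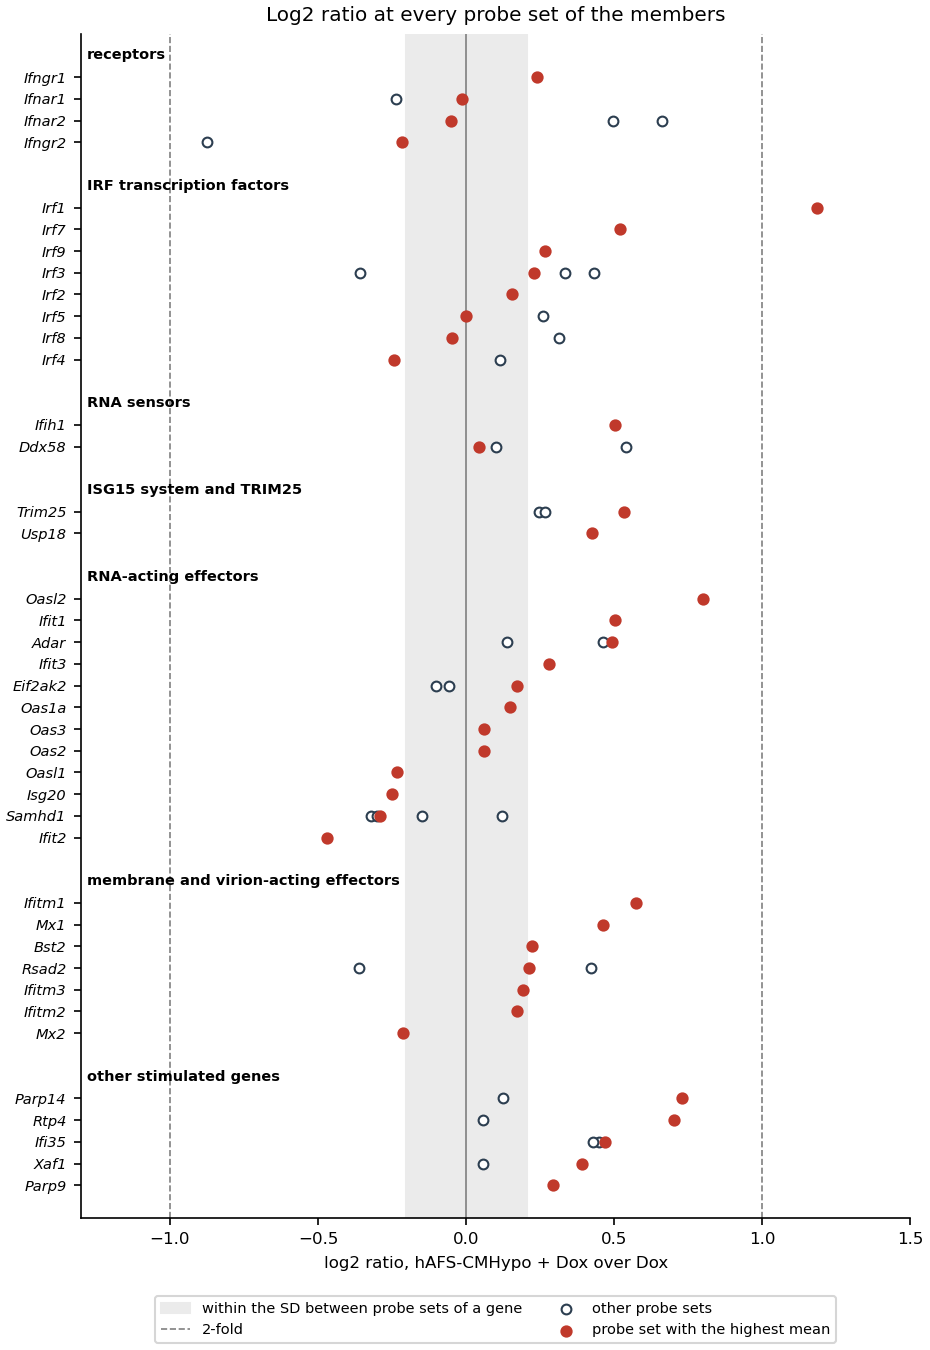
Log2 ratio (hAFS-CMHypo + Dox over Dox) at each of the 69 probe sets of the 40 members, in red at the brightest probe set and in white at the others. The grey band is the SD between probe sets of a gene, 0.20, and the dashed lines mark 2-fold, which *Irf1* alone passes; *Ifnar2*, *Irf3* and *Rsad2* have probe sets on both sides of 0.

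Where a member had several probe sets they did not always share a sign. Of 17 such members, 8 had every probe set above 0, 2 had every probe set below 0 (*Ifnar1* and *Ifngr2*) and 7 had probe sets on both sides. No member had probe sets more than 1 log2 unit apart. Of the 69 probe sets, 50 were above 0 and 19 were below. The matching shares over all probe sets and all genes were not counted, so these signs are not shown to be particular to the members. The other 23 members, among them *Irf1*, *Irf7*, *Oasl2* and the IFIT genes, rest on 1 probe set each. Of the 40 members, 34 reached the median of all probe sets on at least 1 array, against 12238 of all 18193 genes. Those below it on both arrays were *Irf4*, *Irf8*, *Ifit1*, *Oas3*, *Oasl2* and *Mx1*.

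**Figure D4:**
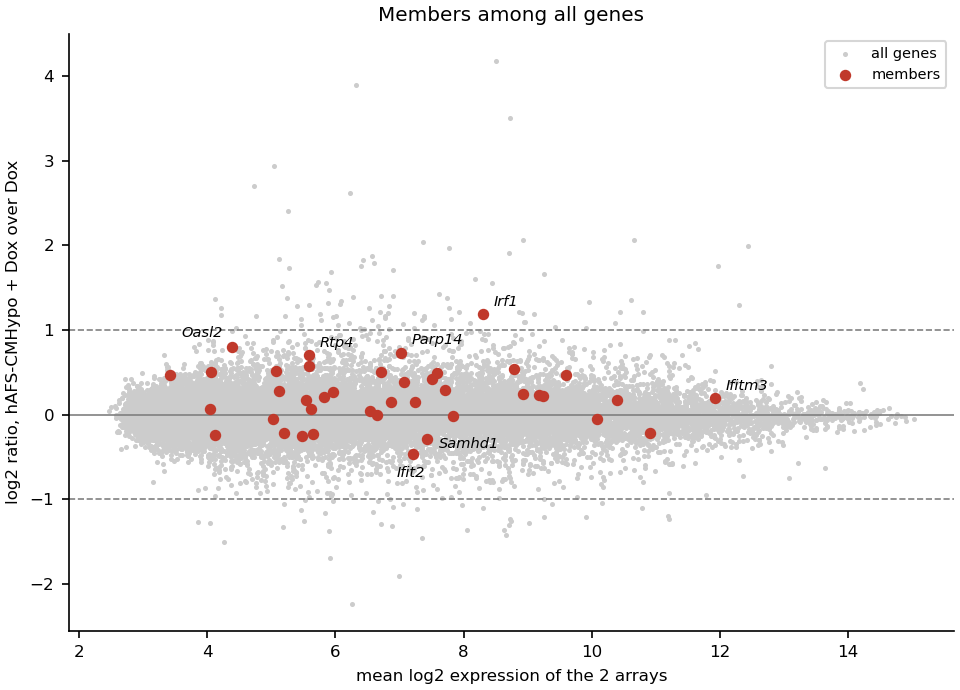
For all 18193 genes (grey) and the 40 members (red), the log2 ratio of hAFS-CMHypo + Dox over Dox is plotted against mean log2 expression. *Irf1* at 1.19 lies above the upper dashed line (2-fold), the other members lie between the dashed lines, and *Ifit2* at -0.47 is the lowest member.

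The log2 ratios were also set beside the promoter letters. At their brightest probe sets, the 12 measured members with an ISRE match all had a log2 ratio above 0, against 51.2% of all genes. They ran from 0.04 (*Ddx58*) to 0.50 (*Ifih1*), with a median of 0.18. Other probe sets of *Rsad2* (-0.36, beside 0.42) and of *Eif2ak2* (-0.10 and -0.06) were below 0. The 21 measured members with a window but no ISRE match ran from -0.47 (*Ifit2*) to 1.19 (*Irf1*). Their median was 0.23, and 12 were above 0, against 51.2% of all genes. The measured members without a window, from -0.21 (*Mx2*) to 0.73 (*Parp14*), are in neither group. Among members with a window, the genes with an ISRE match were thus close together and had no higher median. The 14 members with a GAS match had a median of 0.15 and the 19 without one had 0.24, and the 9 members with a κB match had 0.06 against 0.23 for the 24 without. These are descriptions of small sets that share genes, and no test was made.

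The genes upstream of the members were measured with the same arrays. The 9 measured interferon ligand genes, 7 of them for interferon alpha or its relatives beside *Ifnb1* and *Ifng*, were below the median of all probe sets on both arrays, at log2 values from 2.96 to 4.94. None reached 1.5-fold, against 2.32% of all genes higher and 1.52% lower, and *Ifnb1* and *Ifng* had log2 ratios of 0.13 and 0.29. Of 5 signal transducers, *Jak1* had 10.78 against 10.25, a log2 ratio of 0.53 (its 3 probe sets reach down to -0.19), *Jak2* had 8.56 against 8.13, or 0.43, and *Stat3*, which serves IL-6, had 10.52 against 10.16, or 0.35. *Tyk2* had -0.04. *Stat2*, a subunit of ISGF3, had 5.01 against 5.39, or -0.38, and -0.51 at its other probe set. The kinases and *Stat3* were therefore higher or level while *Stat2* was lower at both of its probe sets.

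Of 7 genes that brake the pathway, 1 passed 2-fold on the higher side, against 0.506% of all genes. *Socs3*, which inhibits JAK kinases at receptors of the IL-6 family, had 9.94 against 8.90, a log2 ratio of 1.04, and its 3 probe sets lay between 1.00 and 1.12. *Socs1*, which is known for braking the interferon receptors, had 5.16 against 5.43, or -0.27. These relatives thus had opposite signs. *Ptpn11*, a phosphatase, had 0.20, *Pias1* had 0.13 and *Ptpn2* had 0.12, all within the SD at their brightest probe sets. The probe sets of each did not share a sign, with ranges of -0.08 to 0.42 for *Ptpn11*, -0.38 to 0.13 for *Pias1* and -0.07 to 0.44 for *Ptpn2*. *Il6*, which the study followed up together with *Cxcl1*, had a log2 ratio of 2.62 on these arrays.

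Of 16 other sensors and adaptors of foreign nucleic acid, none reached 1.5-fold, against 2.32% of all genes higher and 1.52% lower. Their median was 0.14, and 6 passed the SD upwards, against 18.5% of all genes, and 1 downwards, against 16.3%. *Myd88*, the adaptor of Toll-like receptors and of the IL-1 receptor, had 8.65 against 8.08, a log2 ratio of 0.57. *Zbp1*, a sensor of Z-form nucleic acid, had 0.47, *Tlr3* had 0.27 and *Sting1*, the adaptor for cytosolic DNA, had 0.26. *Tlr9* had 5.45 against 5.85, or -0.41. Of 46 further interferon-stimulated genes outside the list, 1 was higher by 1.5-fold, against 2.32% of all genes. None was lower by it, against 1.52%, while 18 passed the SD upwards, against 18.5% of all genes, and 4 downwards, against 16.3%. Their median of 0.11 was lower than the 0.22 of the 40 members. *Casp4*, an inflammatory caspase, had 5.95 against 5.10, or 0.84. *Uba7*, the enzyme that activates ISG15, had 0.57 (as low as -0.23 among its 3 probe sets), *Tor3a* had 0.49 and *Ifi30*, a thiol reductase of lysosomes, had 0.43.

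The GTPases of the GBP and IRG families, which are best known as responses to interferon gamma, ranged widely. Of 11 measured, 4 passed 2-fold on the higher side, against 0.506% of all genes, and none on the lower, against 0.214%, with a median of 0.55, which was 1.34 among those at or above the median signal. *Irgm2* had 7.34 against 5.51, a log2 ratio of 1.83, *Igtp* had 8.64 against 7.56, or 1.08, and *Ifi47* had 0.55. *Gbp2* and *Iigp1* were past 2-fold as well, at 2.41 and 1.60. *Gbp2b*, *Gbp3*, *Gbp6* and *Gbp8*, all below the median of all probe sets on both arrays, had 0.13, 0.01, -0.14 and 0.14. *Gbp7* had 0.58 and *Irgm1* had 0.35. Among the 40 members only *Irf1* passed 2-fold. In the 14 measured genes of antigen processing for MHC class I the median was 0.15, with *Erap1*, a trimming peptidase, at 0.68 (-0.09 at its other probe set) and *Tap1*, a peptide transporter subunit, at 0.52 (as low as -0.24 among 4 probe sets). *Psmb9*, *Psmb8* and *Psmb10*, subunits of the immunoproteasome, had 0.36, 0.32 (-0.15 at its other probe set) and 0.21. The IRF2-binding proteins *Irf2bp1*, *Irf2bpl* and *Irf2bp2* were within the SD at their brightest probe sets, from -0.12 to 0.00, but the 4 probe sets of *Irf2bp2* reached down to -0.43.

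**Figure D5:**
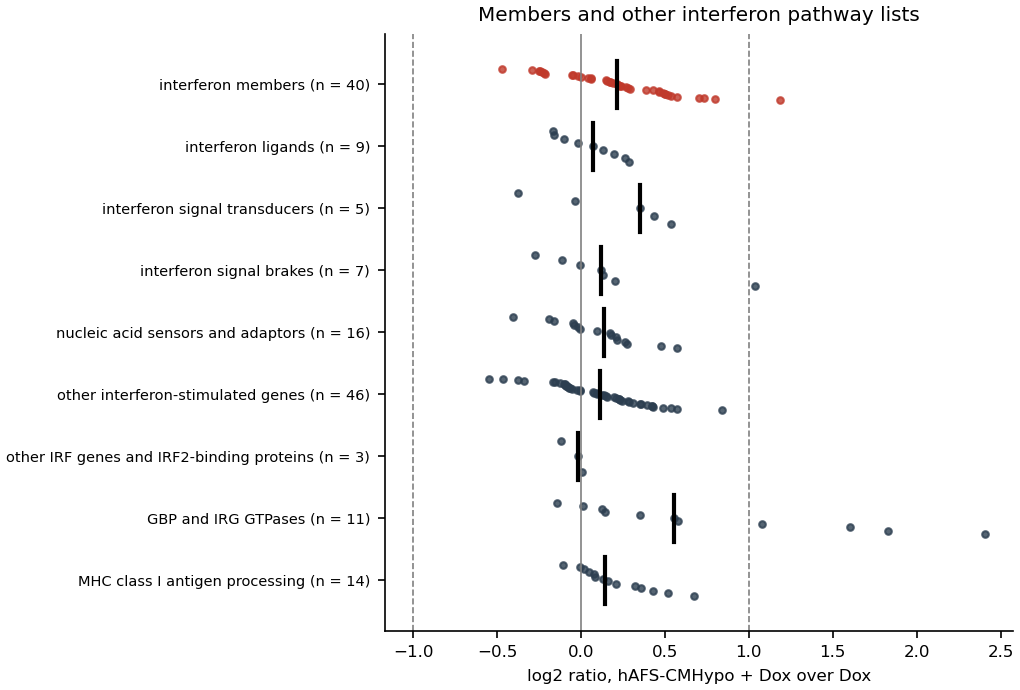
Log2 ratio (hAFS-CMHypo + Dox over Dox) of each measured gene of the interferon members (red) and of 8 other lists of the pathway (dark), 1 point per gene, with the median of each list as a black bar and 2-fold as dashed lines. The medians are 0.22 for the members and 0.55 for the GBP and IRG GTPases, whose points reach 2.41.

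The labelled cell type and the other cells of the culture were checked with marker lists. All 13 cardiomyocyte markers were strong, with log2 values of 9.78 to 15.05, and their median log2 ratio was -0.12. Of these 13, 12 were below 0, against 48.7% of all genes. By more than the SD, 3 were lower, against 16.3% of all genes, and none was higher, against 18.5%. Their levels summed on the linear scale were 233581 for hAFS-CMHypo + Dox and 247530 for Dox. All 15 macrophage markers had a probe set, and 3 of them (*Itgam*, *Cx3cr1* and *Aif1*) were below the median of all probe sets on both arrays. Summed on the linear scale, the 15 gave 5962 for hAFS-CMHypo + Dox and 5954 for Dox. *Lyz2*, at 11.80 against 11.91, makes up most of both sums, so they mainly follow that gene. Of the 15, 5 passed the SD upwards, against 18.5% of all genes, and 1 downwards, against 16.3%. The log2 ratios of the 5 were 0.80 for *Cd14*, 0.48 for *Ptprc*, 0.45 for *Mrc1* and 0.33 for *Csf1r* and *Adgre1*. That of *Itgam* was -0.58. *Ptprc* and *Csf1r* each had another probe set below 0. The summed levels of the 9 endothelial markers were 2502 and 2415, with *Emcn* at 10.17 against 10.12. Those of the 9 fibroblast markers were 16106 and 16623, with *Dcn* at 12.05 against 11.64, and the single markers ranged from a log2 ratio of -1.03 (*Tcf21*, 0.18 at its other probe set) to 0.79 (*Pdgfra*, with -0.05 at another of its 3 probe sets). The 5 smooth muscle markers summed to 27828 and 27127, but *Acta2*, at 14.40 on both arrays, makes up most of both sums. Their single log2 ratios ran from -0.05 (*Smtn*) to 0.32 (*Cnn1*). *Myh11*, at 4.97 against 4.89, was below the median of all probe sets on both arrays. Markers of B cells with plasmacytoid dendritic cells, and of T and NK cells, lay at log2 values of 6.16 or less. Of them, *Flt3*, *Cd3e*, *Cd4* and *Cd8a* were above the median of all probe sets on both arrays, and the others were below it on both. The part of these cells in the log2 ratios of the members was not tested, and no marker is listed at 0, since RMA gives every probe set a value.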

How the data were processed

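Gene expression of mNVCM was measured on 1 Affymetrix mouse array per condition. The authors normalized the arrays by RMA with quantile normalization and deposited log2 values, 1 for each probe set, which were taken unchanged. The range, 2.37 to 15.05, is that of a log2 scale. The software behind RMA is not given in the sources used here. RMA leaves differences of weak probe sets compressed, and no detection call was used.

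Symbols came from the platform annotation, updated by Entrez ID with RefSeq genes of GRCm38.p6. Of 45101 probe sets, 34958 named 1 gene, 932 several and 9211 none. Each of 18193 genes took the probe set with the highest mean. All 42 members, and in each pathway list up to 5 genes with the largest log2 ratios at or above the median signal, were named by rule. *Ifnb1*, *Ifng*, *Cd14*, *Tcf21*, *Pdgfra*, *Gbp2b*, *Gbp3*, *Gbp6*, *Gbp7*, *Gbp8* and *Irgm1* were singled out after their values were seen. So were the other named cell type markers, save the brightest of each list. Members and lists were chosen with earlier results of these data known. With 1 array per condition no test was possible. The steps were tested on simulated data. The alternatives were 3 other choices of probe set, 2 filters on low signal, centring, and lowess correction (span 0.3). Lowess was run with statsmodels 0.14.6 and tables with pandas 2.3.3 and numpy 2.4.6, under Python 3.11.15, and plots with matplotlib 3.10.9.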

Additional observations from a re-analysis of the deposited data

How the results depend on the processing

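With 7 alternatives, the median log2 ratio of the members ran from 0.19 to 0.29. An alternative left out probe sets whose name ends in _a_at, _s_at, _x_at or a like suffix. The suffix alone decided this, and whether such a probe set reads other genes was not tested. With them left out, 31 members had a value. The count higher by 2-fold was then 0 in place of 1, because the only probe set of *Irf1* ends in _a_at. The count at 1.5-fold was 2 in place of 4, and the median of the IRF genes was -0.023 in place of 0.19. With the mean of all probe sets the 1.5-fold count was 2, which leaves *Parp14* and *Rtp4* out. With the probe set of largest change, 1 member (*Ifngr2*) was lower by 1.5-fold, the median of the RNA sensors was 0.52 in place of 0.27 and that of the signal brakes was -0.10 in place of 0.12. Among GBP and IRG genes at or above the median signal the median was 1.34 in place of 0.55, since the genes of low signal drop out. Of 264 single values of members under these alternatives, 253 moved by less than the SD between probe sets, 11 moved by more. Most of the 264 could hardly move, so the 253 do not measure stability. The 23 members with 1 probe set keep their value under any choice of probe set, or drop out. The filters on low signal only remove genes, and centring and lowess shifted members little. All 11 moves arose in members with several probe sets, when these were averaged or the one of largest change was taken. No value past the SD between probe sets at the brightest probe set changed sign. *Ifnar2*, however, went from -0.05 to 0.37 with the mean of all probe sets and to 0.66 with that of largest change. *Irf8* went from -0.05 to 0.31 with the latter. No paired analysis was possible because each condition has 1 array.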
